A study of Mus musculus with 24 samples.

Results

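The cyclin E, E2F and Skp2 genes carry a cell from the G1 phase into DNA synthesis. The set held 10 genes of the 47069 in the count table: Ccne1, Ccne2, Cdk2, Cdkn1b, Skp2, Fbxw7, E2f1, E2f2, E2f3 and E2f8. They were listed by name and partly chosen by measured values: the differences of Ccne1 and Ccne2 between constructs at day 10, and of Skp2 at day 13 after doxycycline withdrawal. All 10 passed the filter on low counts, which kept 13419 genes. RNA was sequenced from mouse fetal liver cells taken at stage E12.5-13.5 from a strain with CAG-driven Cas9 and EGFP at the Rosa26 locus. Every group carried the guide construct sgGata1, and the labels call the cells Gata1s, after the short form of the blood transcription factor GATA1. A second transgene was miR-125b, a microRNA, or the control miR-ctrl. Each transgene was sampled in 3 libraries per condition, 24 in all. The conditions were doxycycline at 1 µg/mL for 48 h (Day2), for 10 days (Day10) or for 13 days (Day13), and day 13 with doxycycline withdrawn on day 10 (Day13WD). The labels do not give the promoter of the microRNA transgene, the number of animals or clones, or what replicates 1 to 3 share, so the p-values measure only the spread between these libraries.

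E-type cyclins bind the kinase Cdk2, which finishes the phosphorylation of the retinoblastoma proteins and thereby frees the activator E2Fs to transcribe genes for DNA replication. p27, the product of Cdkn1b, blocks cyclin E–Cdk2, and the ubiquitin ligase SCF marks phosphorylated p27 for destruction through its receptor Skp2 and cyclin E through its receptor Fbxw7. E2F8, an atypical E2F, binds the same kind of promoters and lowers their output late in S phase. Much of this control acts on protein stability and phosphorylation, which RNA counts do not measure.

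The libraries held 14694900 to 23755245 counts, and the counts for a member in a library ran from 187 (Fbxw7) to 3536 (E2f8). Arid3a, the target named in the series title, had group means of 31.2 to 34.1 CPM (counts scaled to a common library total) with miR-125b and 58.5 to 69.5 CPM in control at Day2, Day10 and Day13WD. In the groups labelled Day13 it stood at 52.2 and 61.0 CPM, so the libraries labelled Day13 and Day13WD did not follow the doxycycline labels for this gene, and those names are used here as labels only. Gata1 was read in all libraries, with group means of 261 to 375 CPM, but summed counts do not separate its short form. The 5 megakaryocyte markers summed to 2559 to 6579 CPM, whereas the 6 hepatocyte markers summed to at most 4.56 CPM. Markers of granulocytes and mast cells (6 genes) summed to 151 to 210 CPM with miR-125b and 96.8 to 121 CPM in control at Day2, and to 112 to 272 and 73.4 to 335 CPM at Day10. The sums were 49.1 to 165 and 59.7 to 183 CPM at Day13, and 57.9 to 224 and 55.1 to 180 CPM at Day13WD. Higher with miR-125b (log2 fold change above 0) were 6 of the 6 markers at Day2, 4 at Day10, 2 at Day13 and 5 at Day13WD. Of these, Mpo, a granulocyte enzyme, had 17.8 ± 7.37 CPM with miR-125b and 0.508 ± 0.418 in control at Day10, 9.95 ± 2.76 and 0.241 ± 0.164 at Day13, and 19.6 ± 7.94 and 0.165 ± 0.139 at Day13WD (SD, n = 3). The part of such cells in the results was not tested. In bulk RNA, fewer cells of a type and less RNA per cell cannot be told apart.

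The sequence of miR-125b is shown first, because its seed decides which transcripts it can pair with. The mature strand in RefSeq is printed with the seed, bases 2 to 8, in capitals.
mmu-miR-125b-5p: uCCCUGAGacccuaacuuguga
In a transcript the 7-base match to the seed reads CTCAGGG. The 8-base form, CTCAGGGA, adds an A opposite the first base of the microRNA. Another 7-base form, TCAGGGA, keeps that A and leaves out the position opposite base 8. The 7-base match to the seed occurred in the longest annotated 3′ UTR of 2 of the 10 genes, E2f2 and E2f3, and in 15.9% of 11659 tested genes with an annotated 3′ UTR. The median 3′ UTR of the tested genes had 1145 bases, and these shares do not allow for length. E2f2 and E2f3, with 3′ UTRs of 3020 and 3328 bases, also held the 8-base form, which 5.61% of the tested genes held. Their 8-base matches are the stretches where the microRNA could pair, and are shown with the match in capitals (GRCm38 build, transcript direction).
E2f2, match at chr4:136194341-136194348, plus strand: ttccacctaccCTCAGGGAgcctgggtttc
E2f3, match at chr13:29908731-29908738, minus strand: ctaatgccacaCTCAGGGAgaccacttctc
E2f2 held a second 7-base match to the seed at chr4:136194359-136194365 and 3 further matches that end in A, and E2f3 held 1 further match of that kind. The 3′ UTRs of Ccne1, Ccne2, Cdk2, Cdkn1b, Skp2, Fbxw7, E2f1 and E2f8, of 531 to 4872 bases, held none of these words. A match is a description of the sequence and no evidence of binding.

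**Figure D1:**
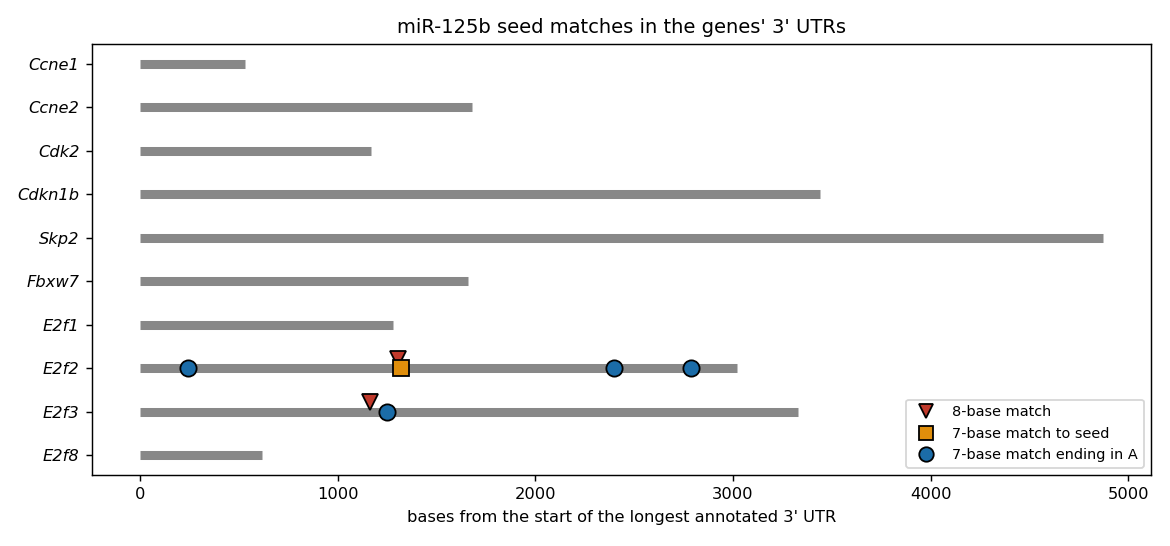
Position of miR-125b seed matches along the 3′ UTR of the 10 genes, in its longest annotated form. The x axis is the distance in bases from the start of the 3′ UTR, grey bars show its length, and the markers show 8-base matches, 7-base matches to the seed and 7-base matches ending in A. Matches lie in E2f2 and E2f3 and in none of the other 8 genes.

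Levels per kb of exon ordered the members from E2f8, at a mean of 25.2 CPM per kb, and E2f1, at 23.2, through Cdkn1b at 19.03, Cdk2 at 18.3, E2f2 at 13.6, Ccne1 at 11.9 and Ccne2 at 10.3. E2f3 at 7.35, Skp2 at 5.90 and Fbxw7 at 2.0 CPM per kb were lowest. The order of E2f8 and E2f1 differed between groups, and E2f1 was above E2f8 with miR-125b at Day2 (26.0 and 24.2 CPM per kb) and Day10 (26.4 and 23.8). All further levels are TMM-normalised CPM, which compare a gene between libraries but not genes with each other. Between the highest and the lowest of the 8 group means, the ratio was 1.82 for Cdkn1b and 1.13 for Cdk2 and for E2f8. It was 1.89 for Ccne1 and 1.76 for Ccne2, whose lowest group was miR-125b Day10, so these 2 ratios rest on the values that chose both genes.

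**Figure D2:**
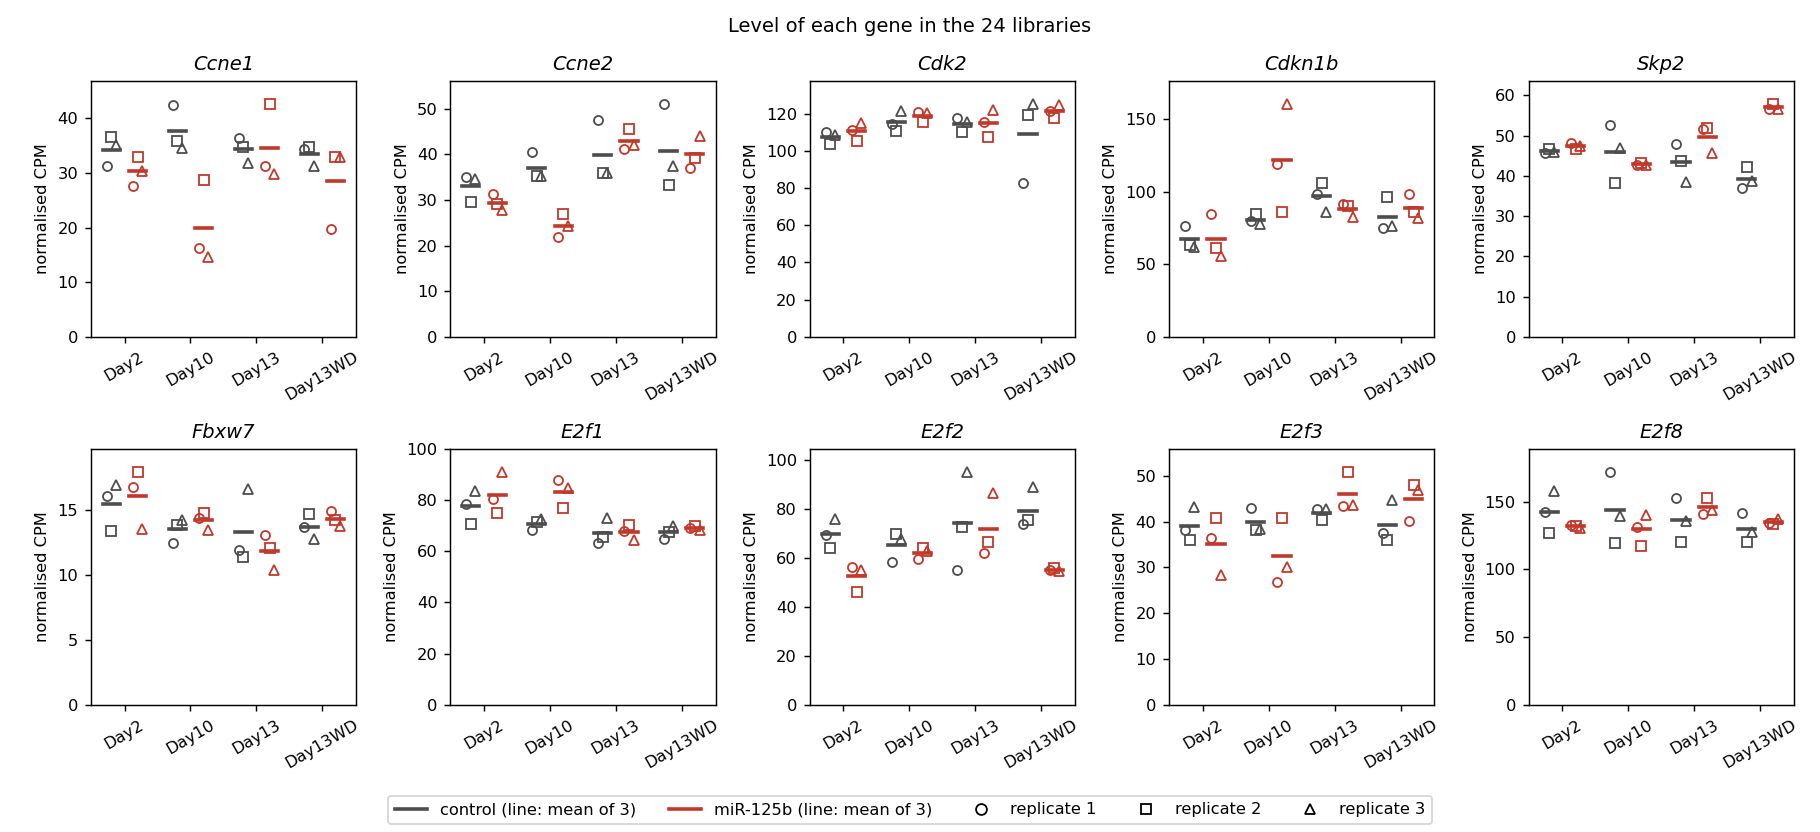
Normalised CPM of the 10 genes in each of the 24 libraries, from 0 on each y axis. The x axis gives the condition as labelled, grey is control and red is miR-125b, symbols mark the replicate number and lines the mean of 3 libraries. Ccne1 and Ccne2 are low in the miR-125b Day10 libraries, Cdkn1b is high in 2 of them, and E2f2 is low with miR-125b at Day2 and Day13WD.

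Ccne1 encodes cyclin E1 and lies at chr7:38097984-38107534 on the minus strand. At Day10 it had 16.2, 28.7 and 14.7 CPM in miR-125b replicates 1, 2 and 3, and 42.5, 35.9 and 34.5 CPM in control. The groups did not overlap, and miR-125b replicate 2 stood nearest to control. The log2 fold change was -0.92 ± 0.21 (SE), a value that chose the gene and is given without a test. Without miR-125b replicate 2 it was -1.29. At Day2 Ccne1 had 27.7, 32.9 and 30.3 CPM with miR-125b and 31.2, 36.6 and 35.1 CPM in control. All 3 pairs of the same replicate number were lower with miR-125b, but the groups overlapped, and the difference of -0.18 ± 0.21 did not pass the test (edgeR quasi-likelihood test, adjusted p = 1). In the groups labelled Day13 it had 31.4, 42.6 and 29.9 CPM with miR-125b and 36.5, 34.8 and 31.9 in control, a difference of 0.01 ± 0.21 (edgeR adjusted p = 0.999). The Day13WD libraries had 19.8, 32.999 and 32.965 CPM with miR-125b and 34.4, 34.7 and 31.3 in control. The single low library there was miR-125b replicate 1. In the order of group means, from control Day10 down to miR-125b Day10, each of the 7 neighbouring pairs of groups overlapped.

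Ccne2 encodes cyclin E2, which also activates Cdk2, and lies at chr4:11191351-11204779 on the plus strand. It shares 17.4% of its exonic bases with Ints8 on the other strand, and whether the authors' counting used strand is not given in the sources used here. At Day10 Ccne2 had 21.9, 26.8 and 24.3 CPM with miR-125b and 40.6, 35.3 and 35.3 in control, again without overlap. Its log2 fold change was -0.61 ± 0.14 (SE), which also chose the gene. At Day2 the libraries had 31.3, 29.1 and 27.8 CPM with miR-125b and 35.1, 29.5 and 34.5 in control. The Day2 difference of -0.17 ± 0.14 was lower in 3 of 3 pairs and did not pass the test (edgeR adjusted p = 1). The groups labelled Day13 held 41.2, 45.6 and 42.0 CPM with miR-125b and 47.6, 36.0 and 35.8 in control, and those labelled Day13WD held 37.1, 39.3 and 44.0 against 51.0, 33.4 and 37.6 CPM. Ccne2 was thus lowest in the miR-125b Day10 group, which did not overlap the group next to it in the order of means, miR-125b Day2.

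Cdk2, the kinase that both E-type cyclins activate, varied little. Its libraries ran from 104 to 125.03 CPM with the exception of control Day13WD replicate 1, at 82.6 CPM. The log2 differences between constructs were 0.04 ± 0.10 at Day2 (edgeR adjusted p = 1), 0.04 ± 0.10 at Day10, 0.01 ± 0.10 at Day13 (edgeR adjusted p = 0.999) and 0.15 ± 0.10 at Day13WD. Without the low control library the Day13WD value was -0.0099. The miR-125b Day10 libraries held 116 to 121 CPM.

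Cdkn1b, at chr6:134920401-134925513 on the plus strand, encodes the inhibitor p27. At Day10 it had 119, 86.2 and 160 CPM in miR-125b replicates 1, 2 and 3 and 79.9, 84.2 and 77.8 CPM in control. The groups did not overlap, but replicate 2 with miR-125b exceeded the highest control library by little. The log2 fold change was 0.59 ± 0.17 (SE), given without a test, and it was 0.35 without miR-125b replicate 3. Under the Day13 label, Cdkn1b had 91.6, 89.8 and 82.5 CPM with miR-125b and 98.3, 106 and 86.2 in control. All 3 pairs were lower with miR-125b there, by -0.14 ± 0.17, which did not pass the test (edgeR adjusted p = 0.999). At Day2 the libraries had 84.3, 61.4 and 55.4 CPM with miR-125b and 76.5, 63.4 and 61.9 in control, a difference of -0.01 ± 0.18 (edgeR adjusted p = 1). At Day13WD they had 98.2, 86.1 and 81.7 against 75.1, 96.1 and 76.6 CPM.

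Skp2, at chr15:9111985-9155425 on the minus strand, encodes the F-box protein that delivers p27 to the SCF ligase. In the groups labelled Day13WD it had 56.5, 57.8 and 56.7 CPM with miR-125b and 37.0, 42.1 and 38.6 CPM in control. The miR-125b libraries lay close to each other and above every control library. The log2 fold change of 0.54 ± 0.098 (SE) chose the gene. With the Day13 label, Skp2 had 51.6, 52.0 and 45.7 CPM with miR-125b and 48.0, 43.8 and 38.4 in control. It was higher in 3 of 3 pairs, by 0.20 ± 0.098, but the groups overlapped and the difference did not pass the test (unadjusted p = 0.0571, edgeR adjusted p = 0.999). At Day2 the values were 48.1, 46.7 and 47.4 against 45.6, 46.8 and 45.8 CPM, a difference of 0.04 ± 0.098 (edgeR adjusted p = 1). At Day10 they were 42.7, 43.2 and 42.8 against 52.6, 38.3 and 47.0 CPM, a log2 difference of -0.10 ± 0.098. The Skp2 groups overlapped there.

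Fbxw7, the receptor that delivers cyclin E to the SCF ligase, had the lowest counts of the set, from 10.4 to 17.95 CPM. Its differences between constructs were 0.06 ± 0.15 at Day2 (edgeR adjusted p = 1), 0.07 ± 0.15 at Day10, -0.17 ± 0.15 at Day13 (edgeR adjusted p = 0.999) and 0.06 ± 0.15 at Day13WD. All 7 neighbouring pairs of group means overlapped. Its miR-125b and control groups overlapped in all 4 conditions.

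E2f1, at chr2:154559407-154569892 on the minus strand, is an activator E2F. At Day10 it had 87.7, 77.0 and 84.8 CPM with miR-125b and 68.5, 71.5 and 72.6 in control, without overlap. Its log2 difference was 0.23 ± 0.084 (SE), given without a test. At Day2 it had 80.5, 74.8 and 90.9 against 78.6, 70.6 and 83.4 CPM, a difference of 0.08 ± 0.084 (edgeR adjusted p = 1). The difference was 0.01 ± 0.084 at Day13 (edgeR adjusted p = 0.999) and 0.04 ± 0.084 at Day13WD.

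E2f2, the activator E2F with the most seed matches, lies at chr4:136172394-136196057 on the plus strand. At Day2 it had 56.2, 46.0 and 55.1 CPM with miR-125b and 69.5, 64.0 and 75.9 CPM in control. Every miR-125b library lay below every control library, and 3 of 3 pairs were lower. The log2 fold change of -0.41 ± 0.15 had an unadjusted p of 0.0135 but did not pass the test over all genes (edgeR adjusted p = 0.898, and 0.328 with the replicate block). At Day13WD E2f2 had 55.0, 55.9 and 54.7 CPM with miR-125b and 73.7, 75.5 and 88.9 in control, again without overlap, with a log2 fold change of -0.52 ± 0.15 given without a test. At Day10 the groups overlapped, with 59.4, 64.0 and 62.6 against 58.4, 69.9 and 67.6 CPM, a difference of -0.07 ± 0.15. Under the Day13 label they overlapped as well, with 62.1, 66.3 and 86.7 against 54.9, 72.6 and 95.0 CPM, a difference of -0.05 ± 0.15 (edgeR adjusted p = 0.999). Groups did not overlap for 12.3% of all genes at Day2 and 11.4% at Day13WD. The part of the seed matches in the E2f2 values was not tested.

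E2f3, the other activator with seed matches, lies at chr13:29906575-29986063 on the minus strand. At Day2 it had 36.5, 40.8 and 28.4 CPM with miR-125b and 38.3, 36.1 and 43.1 in control, a difference of -0.15 ± 0.14 (edgeR adjusted p = 1). At Day10 it had 26.8, 40.7 and 30.1 against 43.0, 38.3 and 38.3 CPM. The difference there was -0.29 ± 0.14, and miR-125b replicate 2 was the library that overlapped control. Under Day13 the libraries had 43.4, 50.8 and 43.7 against 42.7, 40.3 and 42.8 CPM, without overlap, but the difference of 0.13 ± 0.14 did not pass the test (edgeR adjusted p = 0.999). At Day13WD the difference was 0.19 ± 0.14. E2f3 therefore had values below 0 at Day2 and Day10 and above 0 in both day 13 conditions. The part of its seed matches in these values was not tested.

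E2f8, the repressor, lies at chr7:48866429-48881596 on the minus strand and shares 11.2% of its exonic bases with the transcript Gm2788 on the other strand. It ran from 117 to 172 CPM, and its groups overlapped in all 4 conditions. The log2 differences were -0.11 ± 0.11 at Day2 (edgeR adjusted p = 1), -0.15 ± 0.11 at Day10, 0.10 ± 0.11 at Day13 (edgeR adjusted p = 0.999) and 0.06 ± 0.11 at Day13WD.

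**Figure D3:**
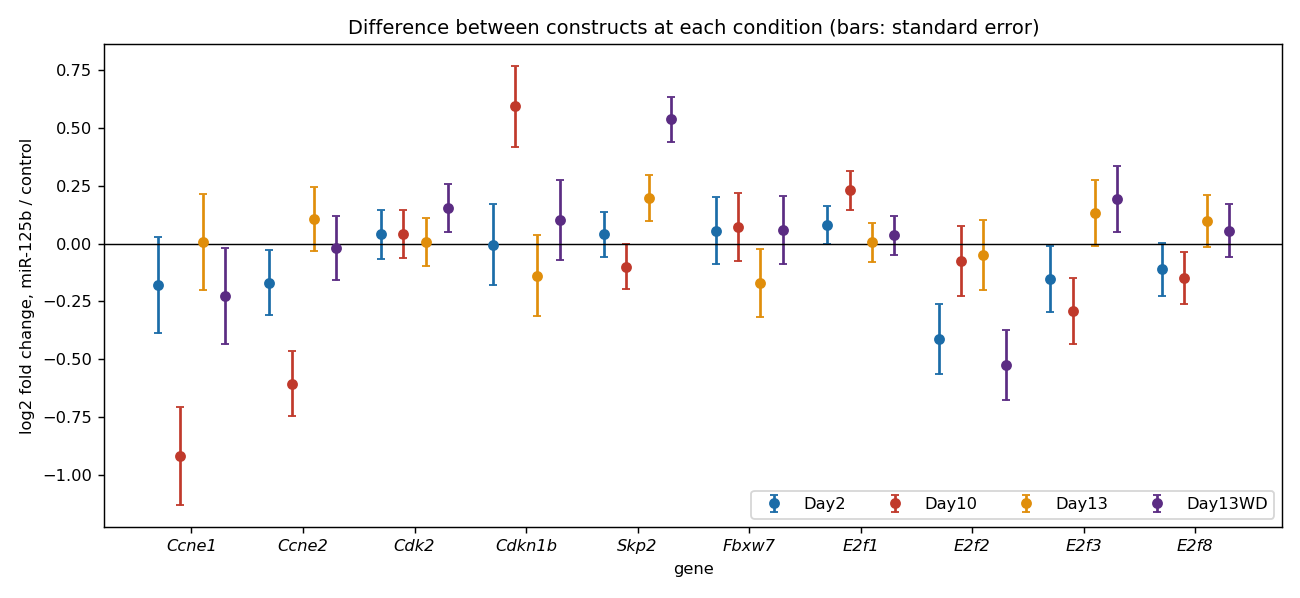
Log2 fold change of miR-125b against control for each gene at the 4 conditions, with the standard error as bars. Ccne1 and Ccne2 at Day10 and Skp2 at Day13WD chose the set, and the values of all members in those 2 conditions are given without p-values. E2f2 lies farthest below 0 at Day2 and Day13WD, and its values at Day10 and Day13 are smaller than their standard errors.

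Counted over the set, 0 of 10 members passed the test at Day2 and 0 of 10 at Day13, where 0% of all genes passed in each. At an unadjusted p under 0.05, 709 of the 13419 genes were found at Day2, with E2f2 as the 1 member, and 388 at Day13, with 0 members. DESeq2 called 4 genes at Day2 and 3 at Day13. In the comparisons that chose the set, 0.872% of all genes passed at Day10 and 0.119% at Day13WD, or 8.63% and 1.86% with the replicate number as a block. Groups did not overlap for 1 member at Day2 (12.3% of all genes), 4 at Day10 (19.7%), 1 at Day13 (8.52%) and 2 at Day13WD (11.4%). The Day10 and Day13WD counts are descriptions from which nothing is read. The median log2 difference of the 10 members was -0.0584 at Day2, -0.0867 at Day10, 0.00858 at Day13 and 0.0586 at Day13WD, beside 0.00386, 0.00418, -0.0157 and -0.0125 over all genes.

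The change over time was compared with both constructs averaged. From Day2 to Day10, 1 of 10 members rose and 0 fell, where 0.835% of all genes rose and 0.224% fell. The riser was Cdkn1b, with a log2 fold change of 0.56 ± 0.12 (SE), higher in 3 of 3 pairs (edgeR adjusted p = 0.0365). Group means went from 67.3 ± 8.03 to 80.7 ± 3.28 CPM in control and from 67.1 ± 15.2 to 122 ± 37.0 CPM with miR-125b (SD, n = 3). The log2 change was thus 0.26 ± 0.18 within control and 0.86 ± 0.18 within miR-125b libraries. The call was lost in 9 of 12 fits that left out 1 library, those of replicates 2 and 3 of either construct at Day2, replicates 1 and 3 of miR-125b at Day10 and all 3 control libraries at Day10. The value in these 12 fits ran from 0.438, without miR-125b Day10 replicate 3 (edgeR adjusted p = 0.0947), to 0.660. It did not pass either when only the Day2 and Day10 libraries were fitted (0.57, edgeR adjusted p = 0.116).

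From Day10 to Day13, 0 of 10 members passed the test, where 0% of all genes did. At an unadjusted p under 0.05 there were 1436 genes, 4 of them members, and DESeq2 called 82 genes. Ccne2 had the smallest p of the set, with 0.46 ± 0.099, higher in 3 of 3 pairs (edgeR adjusted p = 0.158). It passed with the replicate block (0.46, edgeR adjusted p = 0.0338), where 0.671% of all genes did, and with DESeq2 (0.46, adjusted p = 0.0138). The change was 0.10 ± 0.14 within control and 0.82 ± 0.14 within miR-125b libraries, and the miR-125b Day10 libraries are those whose low value chose the gene, so nothing is read from these calls. Ccne1, with 0.33 ± 0.15, had the same split, at -0.13 ± 0.21 within control and 0.80 ± 0.21 within miR-125b libraries. E2f3 had 0.28 ± 0.10 and E2f1 had -0.19 ± 0.059, each in the same direction in 3 of 3 pairs (edgeR adjusted p = 0.315 and 0.283).

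Between the groups labelled Day13 and Day13WD, 0 of 10 members passed, and 0% of all genes did, with 410 genes but 0 members at an unadjusted p under 0.05 and 4 genes called by DESeq2. The log2 differences of the members, Day13WD against Day13, ran from -0.16 ± 0.15 for Ccne1 to 0.16 ± 0.10 for Fbxw7. Skp2 averaged over constructs differed by 0.03 ± 0.069, made up of -0.14 ± 0.098 within control and 0.20 ± 0.098 within miR-125b libraries. E2f2 likewise had 0.10 ± 0.15 within control and -0.38 ± 0.15 within miR-125b libraries.

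The rest of the pathway was read from 51 further genes: D-type cyclins and their kinases, retinoblastoma proteins, other E2F and DP proteins, other inhibitors, ligase partners, Cdk2 activators and E2F-responsive S-phase genes. All 51 were tested. At Day10, 1 rose with miR-125b and 1 fell, where 0.872% of all genes passed. The riser was Cdkn1a, which encodes p21, another inhibitor of cyclin–Cdk2 complexes. It had 231, 171 and 421 CPM with miR-125b and 126, 136 and 154 in control, without overlap. Its log2 fold change was 0.99 ± 0.23 (edgeR adjusted p = 0.0471), and, as for Cdkn1b, miR-125b replicate 3 was highest and replicate 2 lowest. E2f4, an E2F that represses in resting cells, had 194, 188 and 161 CPM with miR-125b and 251, 211 and 266 in control, a log2 fold change of -0.42 ± 0.10 (edgeR adjusted p = 0.0471). Without miR-125b replicate 1 or 3 or control replicate 1 or 3 the number called was 0, and it was 4 without miR-125b replicate 2. It was also 0 in the fit to Day10 alone and without a filter on low counts. With the replicate block 6 genes passed, where 8.63% of all genes did. Among them Cdk6, a partner of the D-type cyclins, had a log2 difference of 0.80 ± 0.24 in the fit without the block (adjusted p = 0.00174 with it, 0.0979 without).

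Another inhibitor rose over the same interval as Cdkn1b. From Day2 to Day10, Cdkn1a rose by 0.69 ± 0.16 with constructs averaged (edgeR adjusted p = 0.0473). It was the 1 gene of the 51 that passed, where 0.835% of all genes rose and 0.224% fell. Its group means went from 110 ± 7.003 to 139 ± 14.2 CPM in control and from 134 ± 9.18 to 275 ± 130 CPM with miR-125b (SD, n = 3). The count was 0 in 10 of 12 fits that left out 1 library and 2 in the other fits, those without miR-125b Day2 replicate 3 or Day10 replicate 2. Cdkn2c, an inhibitor of Cdk4 and Cdk6, passed with the replicate block, where 4.51% of all genes did (0.59 ± 0.16 without it, adjusted p = 0.0775, and 0.00102 with it). At Day2 and Day13, 0 of 51 passed, where 0% of all genes did in each. There 1 and 2 of the 51 had an unadjusted p under 0.05, beside 709 and 388 of all 13419 genes. At Day13WD 0 of 51 passed, where 0.119% of all genes did. An unadjusted p under 0.05 was found there for 8 of the 51, beside 1147 of the 13419 genes. With the replicate block, 2 passed at Day13WD, where 1.86% of all genes did: Tfdp2, a DP partner of E2Fs (-0.44 ± 0.12 without the block, adjusted p = 0.0403 with it), and Cdc6, which loads the replicative helicase (0.34 ± 0.12 without the block, adjusted p = 0.0455 with it).

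The 20 E2F-responsive S-phase genes are known targets of E2F proteins. Among others, they encode replication licensing factors, enzymes of nucleotide supply and DNA polymerase subunits. With miR-125b, 13 of 20 lay above 0 at Day2, 1 at Day10, 20 at Day13 and 20 at Day13WD. Their median log2 differences were 0.0302, -0.188, 0.144 and 0.136, while 49.1%, 49.4%, 53.8% and 52.3% of all tested genes lay below 0. Without the replicate block none of the 20 passed in any of these 4 comparisons, where 0%, 0.872%, 0% and 0.119% of all genes did. At an unadjusted p under 0.05 there were 1, 7, 2 and 5, beside 709, 2334, 388 and 1147 of all 13419 genes. With the replicate block, where 8.63% of all genes passed, Rrm2, Tyms and Slbp passed at Day10 (-0.27 ± 0.11, -0.39 ± 0.12 and -0.32 ± 0.098 without the block, with adjusted p of 0.0493, 0.0203 and 0.0333 with it). Summed over the 20 genes, Day10 libraries held 4071 to 4340 CPM with miR-125b and 4323 to 5227 CPM in control, so the groups overlapped. Day13 libraries held 4900 to 5295 and 4250 to 4927 CPM, and Day13WD libraries 4910 to 5211 and 4012 to 5090 CPM. The 20 genes follow each other from library to library and are not independent counts. The 10 G2 and M phase markers summed to 2465 to 2586 CPM with miR-125b and 2497 to 2577 CPM in control at Day10, to 2804 to 2850 and 2624 to 2755 CPM at Day13, and to 2653 to 2730 and 2415 to 2720 CPM at Day13WD. Of these 10 markers, 9 lay above 0 at Day13 and 8 at Day13WD, with a median log2 difference of 0.19 at Day13WD. At an unadjusted p under 0.05 there were 0 at Day13 and 8 at Day13WD, beside 388 and 1147 of all 13419 genes. In either condition 0 of the 10 passed the test, where 0% and 0.119% of all genes did. The 5 megakaryocyte markers all lay below 0 at Day13 and Day13WD, with median log2 differences of -0.395 and -0.668. None of them passed the test without the block, and 2 at Day13WD passed with it, where 1.86% of all genes did. At Day10, 3 of the 5 megakaryocyte markers lay above 0, with a median log2 difference of 0.00344. With the block, 2 of them were called lower there, where 8.63% of all genes passed. The part of cell cycle phase or of megakaryocytes in the S-phase values was not tested. From Day10 to Day13, with constructs averaged, 0 of the 51 pathway genes passed without the block, where 0% of all genes did. With it 3 passed, where 0.671% did: Cdc6 (0.26 ± 0.086), Rrm2 (0.27 ± 0.081) and Pola1 (0.33 ± 0.083), given here from the fit without it. Their group means went from 59.8 to 80.3, 221 to 303 and 104 to 144 CPM with miR-125b. In control they went from 65.1 to 69.9, 267 to 281.5 and 113 to 130 CPM, so each rose more with miR-125b. From Day13 to Day13WD 0 of 51 passed in either fit, where 0% of all genes passed without the block.

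**Figure D4:**
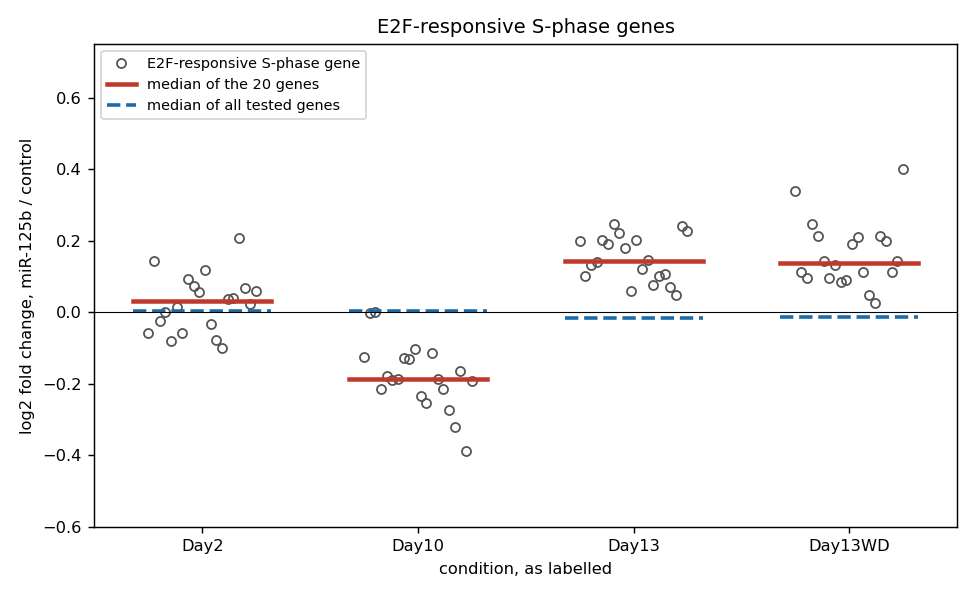
Log2 fold change of miR-125b against control for the 20 E2F-responsive S-phase genes (circles) at the 4 conditions, with their median in red and the median of all 13419 tested genes as a dashed blue line. The circles lie mostly below 0 at Day10 and all above 0 at Day13 and Day13WD, and none of them passed the test without the replicate block.

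Promoters were read because E2F proteins bind a short GC-rich word near the start sites of their targets, E2F genes included. The words searched were TTTCCCGC, TTTCGCGC, TTTGCCGC and TTTGGCGC on both strands of the RefSeq promoters (GRCm38.p6), which span 250 bases before to 50 after the start. Of the 9 members with an entry, 3 held a word (Cdk2, E2f2 and E2f3), beside 2.6% of 27025 genes with an entry, and 14 of 42 genes of the pathway list did. Ccne2 had no entry. The matches are shown in capitals, in the direction of the gene, because E2f2 and E2f3 are themselves activators.
Cdk2, match at chr10:128705184-128705191, minus strand: aaccaggaactGCGGGAAAgttgtgcagct
E2f2, match at chr4:136172313-136172320, plus strand: gcggcatatagTTTGGCGCtaa
E2f3, match at chr13:29986067-29986074, minus strand: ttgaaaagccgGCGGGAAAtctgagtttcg
At Day2, Cdk2 differed between constructs by 0.04 ± 0.10, E2f2 by -0.41 ± 0.15 and E2f3 by -0.15 ± 0.14 on the log2 scale. At Day13 they differed by 0.01 ± 0.10, -0.05 ± 0.15 and 0.13 ± 0.14, and none passed the test in either. The Day10 values were 0.04 ± 0.10, -0.07 ± 0.15 and -0.29 ± 0.14, and those at Day13WD 0.15 ± 0.10, -0.52 ± 0.15 and 0.19 ± 0.14. These 2 comparisons chose the set, and no direction is read from any of the values.

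Over the 24 libraries the 10 genes did not move as a block. Of 45 pairs of members, 26 had a Pearson correlation of log2 CPM below 0, with a median of -0.0678. Ccne2 and E2f3 were the closest pair (0.746), followed by Ccne1 and Ccne2 (0.626), and Ccne2 and E2f1 the most opposed (-0.793). These values share libraries and depth, include the Day10 libraries that chose Ccne1 and Ccne2, and are descriptions only. On deviations from the group means the same 3 pairs had 0.424, 0.376 and -0.309, and the closest pair was Ccne1 and E2f3 (0.635) and the most opposed Skp2 and E2f2 (-0.661). Among 9739 other genes of sufficient level, those most like Ccne1 were Slc35a1 (0.921), Sirt1 (0.89) and Ippk (0.888), and those most like Ccne2 were Bzw1 (0.929), Ccar1 (0.928) and Angel2 (0.917). Skp2 had weaker neighbours, Kctd5 (0.824), Tardbp (0.793) and Rbm28 (0.793). Replicate numbers took part in the levels: Ccne1 was highest in replicate 2 in 6 of 8 groups and Cdk2 lowest in replicate 2 in 7 of 8.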

How the data were processed

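Total RNA was sequenced in 24 libraries, and the authors deposited raw counts per Ensembl gene, with 0 columns left unmatched to a sample. The submitters' processing notes name fastp, HISAT2 2.0.5, featureCounts and the build mm10, without role or order. Annotation release and strand setting are not given in the sources used here. Symbols and coordinates came from GENCODE M21 (GRCm38), which matched 46574 of 47069 identifiers. Counts were fitted with edgeR 4.0.16 (filterByExpr, TMM, robust quasi-likelihood, 8 group coefficients, 16 residual degrees of freedom), and p-values were adjusted by Benjamini-Hochberg over 13419 genes with a threshold of 0.05. Standard errors came from the F statistic. The fit was tested on simulated data with larger changes than those of the members, less spread and no differences between replicate numbers. That test does not show how well the fit finds changes of the size seen here. Replicates of a group differed by more than sampling noise (chi-square of 11.6 to 109 per degree of freedom). Libraries of the same replicate number deviated together in all 84 pairs (r of 0.163 to 0.781), so the numbers pair the libraries. The main fit did not use this pairing, so differences between replicate numbers stayed in its spread. The common dispersion was 0.0591 in that fit and 0.0169 with the replicate number as a block. A difference that did not pass in the main fit is therefore not shown to be absent. A fit with the replicate block was run as an alternative, beside RLE factors, other filters, DESeq2 1.42.0, a newer quasi-likelihood estimate, fits to the compared groups alone and leaving out each library. Named genes were all members, the pathway genes that passed with or without the block (up to 4 a direction by p in time comparisons), the 3 genes most correlated with each of Ccne1, Ccne2 and Skp2, and Gata1, Arid3a and Mpo as a check of the labels. Members and lists were chosen with earlier results of these data known. In the Day10 and Day13WD comparisons of constructs, which chose the members, they are given without p-values. Their values there are descriptions, from which nothing is read. Fits within 1 construct were added after seeing the data.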

Additional observations from a re-analysis of the deposited data

Results flagged for a closer look

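Cdkn1b, which encodes the inhibitor p27, was flagged because its difference between miR-125b and control pointed in opposite directions at 2 conditions. At Day10 all 3 replicate pairs were higher with miR-125b (log2 fold change 0.5947), though the replicate 2 pair had 86.2 and 84.2 CPM. In the groups labelled Day13 all 3 were lower, by less than the standard error (-0.1385 ± 0.1746). The Day10 comparison chose the set, so nothing is read from its value. The difference between the Day10 and Day13 effects was not tested.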

How the results depend on the processing

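The number of members called kept its value under every alternative run except as follows. From Day2 to Day10 it was 0 in place of 1 in the fit to the compared groups alone and ran from 0 to 1 with single libraries left out. From Day10 to Day13 it was 1 in place of 0 with DESeq2 and with the replicate block. That member was Ccne2, whose low miR-125b Day10 libraries chose it, so nothing is read from these calls. For the pathway list at Day10 the count of 2 became 0 without a filter, 5 with DESeq2, 6 with the replicate block and 0 in the compared groups alone, and ran from 0 to 4 with single libraries left out. At Day13WD it became 2 in place of 0 with the block. From Day2 to Day10 the count of 1 became 0 without a filter, 4 with DESeq2, 2 with the block and 0 in the compared groups alone, and ran from 0 to 2 with single libraries left out. From Day10 to Day13 it became 1 with DESeq2 and 3 with the block, in place of 0. The block changed no other count of members or of the pathway list. Counts of marker lists also changed with it, as for the megakaryocyte markers at Day10 and Day13WD. The cause of these changes was not tested.

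Several values changed sign. Cdkn1b at Day2 was 0.004785 without a filter and 0.0001091 with the 1 CPM filter. Ccne1 at Day13 was -0.009705 with the block, and E2f8 from Day2 to Day10 was 0.0004813 in the compared groups alone. Within control libraries alone, the values from Day2 to Day10 that turned were Ccne1 0.1353, Ccne2 0.1654, E2f2 -0.09764, E2f3 0.02512 and E2f8 0.01288. From Day10 to Day13 they were Ccne1 -0.1307, Cdkn1b 0.2638, Skp2 -0.08279 and E2f8 -0.07548, and from Day13 to Day13WD Ccne2 0.0275, Cdk2 -0.06865, Skp2 -0.1449 and E2f2 0.09831. Within miR-125b libraries alone, E2f1 was 0.01977 from Day2 to Day10 and Cdkn1b 0.01126 from Day13 to Day13WD. With single libraries left out, the ranges that crossed 0 among tested values were, at Day2, Cdkn1b -0.205 to 0.113 and Fbxw7 -0.0393 to 0.165. At Day13 they were Ccne1 -0.166 to 0.103, Cdk2 -0.0366 to 0.0586, Fbxw7 -0.267 to 0.0217, E2f1 -0.0332 to 0.0709 and E2f2 -0.22 to 0.17. From Day2 to Day10 they were E2f3 -0.141 to 0.0165 and E2f8 -0.0797 to 0.0525, and from Day10 to Day13 Cdkn1b -0.201 to 0.0206 and E2f8 -0.00986 to 0.122. From Day13 to Day13WD they were Ccne2 -0.132 to 0.038, Cdk2 -0.0516 to 0.0855, Skp2 -0.015 to 0.0631 and E2f1 -0.00391 to 0.0527. Among values given without a test, the ranges that crossed 0 were Skp2 at Day10, -0.217 to 0.00717, and at Day13WD Ccne2, -0.141 to 0.177, and Cdk2, -0.0099 to 0.264. The lowest count of a member in a library was 187, for Fbxw7.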
